A study of Danio rerio with 3 samples.

Results

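Rab GTPases and vesicle coat proteins were followed through zebrafish gastrulation, from its start at 6 hours post fertilization (hpf) to its end at 10 hpf. Members were chosen by a rule on gene symbols, set with earlier results of these data known. It took Rab genes with a number, the COPI subunit genes, the SAR1 and SEC genes of the COPII coat, the Sec61 translocon and neighbouring SEC names, the Arf GTPases 1 to 6, the p24 (tmed) family and the creb3 factors. The rule found 135 of 35117 genes, of which 66 were Rab GTPases, 11 Rab regulators and effectors, 7 COPI, 10 COPII, 11 p24, 10 Arf, 7 translocon and signal peptidase, 4 SEC22, 3 SEC14-like and 5 CREB3 genes, with sec23ip as a single associated protein. A further 6 genes with upper-case symbols (RAB19, RAB21, RAB35, RAB37, RAB38 and SEC14L1) were not matched by the rule, and none of these 6 was called.

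All embryos were wild type, came from a wild-type cross, were left untreated in embryo medium and were taken whole after removal of the chorion. The labels gave 1 library at 6 hpf and 2 libraries at 10 hpf, and did not say how many embryos were pooled or whether the later libraries came from separate clutches. For each gene and stage the data held 1 RPKM value (a read number divided by gene length in kilobases and by library size), and at 10 hpf that value stood for both libraries. Low values rose in steps that fit 16991531 reads at 6 hpf, the smallest of the best-fitting totals, and 23243200 reads at 10 hpf. No spread between replicates could be computed, so neither an SD nor a test made here stands beside any level. In whole embryos, fewer cells of a type and less RNA per cell cannot be told apart.

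Proteins leave the endoplasmic reticulum (ER) in vesicles with a COPII coat. Its small GTPase Sar1 recruits an inner layer of Sec23 and Sec24, in which Sec24 binds cargo, and an outer cage of Sec13 and Sec31. COPI, a coat recruited by Arf GTPases, carries material back from the Golgi, and p24 proteins travel between these compartments as cargo receptors. Rab GTPases mark each membrane and decide where vesicles move and fuse. In zebrafish, mutations of copa, copb1 and copb2 (sneezy, sleepy and happy) disturb the notochord, and mutations of sec23a, sec24d and creb3l2 (crusher, bulldog and feelgood) disturb collagen secretion by cartilage cells.

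Calls were those of the authors' deposited table at an empirical false discovery rate below 0.05, and the sign of its log2 fold gave their direction. Of all genes, 9.7% were called higher at 10 hpf and 19.8% lower, and among the 17494 genes at 1 RPKM or more in either stage these shares were 16.3% and 32.9%. Of the 135 members, 17 (12.6%) had a higher and 21 (15.6%) a lower call in the authors' deposited table and 97 had no call. At 1 RPKM or more, a level that most members and fewer of all genes reached, 16 of 116 members (13.8%) were called higher against 16.3% of genes, and 18 (15.5%) lower against 32.9%. By RPKM, 80 of the 116 members at 1 RPKM or more (69.0%) had the larger value at 10 hpf, against 55.0% of all genes at that level. At well measured genes the deposited log2 fold was 0.60 lower than the RPKM values give, a factor of 1.52. A member with a larger RPKM at 10 hpf can thus lack a call while one with a slight decrease has it, and a member that was not called is not shown to be unchanged. By the deposited fold 51 of the same 116 members were above 0 and 65 below. A lower call was said to hold after centring where the conservative fold in the authors' deposited table remained below 0 after subtraction of the median fold over the genes with at least 5 RPKM. After this step 12 of the 135 members kept a lower call, as did 13.4% of all genes.

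Levels are given as RPKM pairs, 6 hpf first. Ratios of RPKM values are given without a pseudocount and only where both stages reached 1 RPKM. Group medians are of log2((RPKM at 10 hpf + 1)/(RPKM at 6 hpf + 1)) over members at 1 RPKM or more in either stage, and the same median over all genes at that level was 0.14. Of the 19 members under 1 RPKM at both stages 12 were Rab GTPases, and rab32b and tmed6 were listed at 0 throughout. A listed 0 at 6 hpf alone was found for sec16b, rab39ba, rab3ab and rab42b. Intervals on ratios are exact 95% binomial intervals from the smallest whole read numbers that fit both RPKM values of a gene. They cover counting error only and leave out the unknown spread between libraries.

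**Figure D1:**
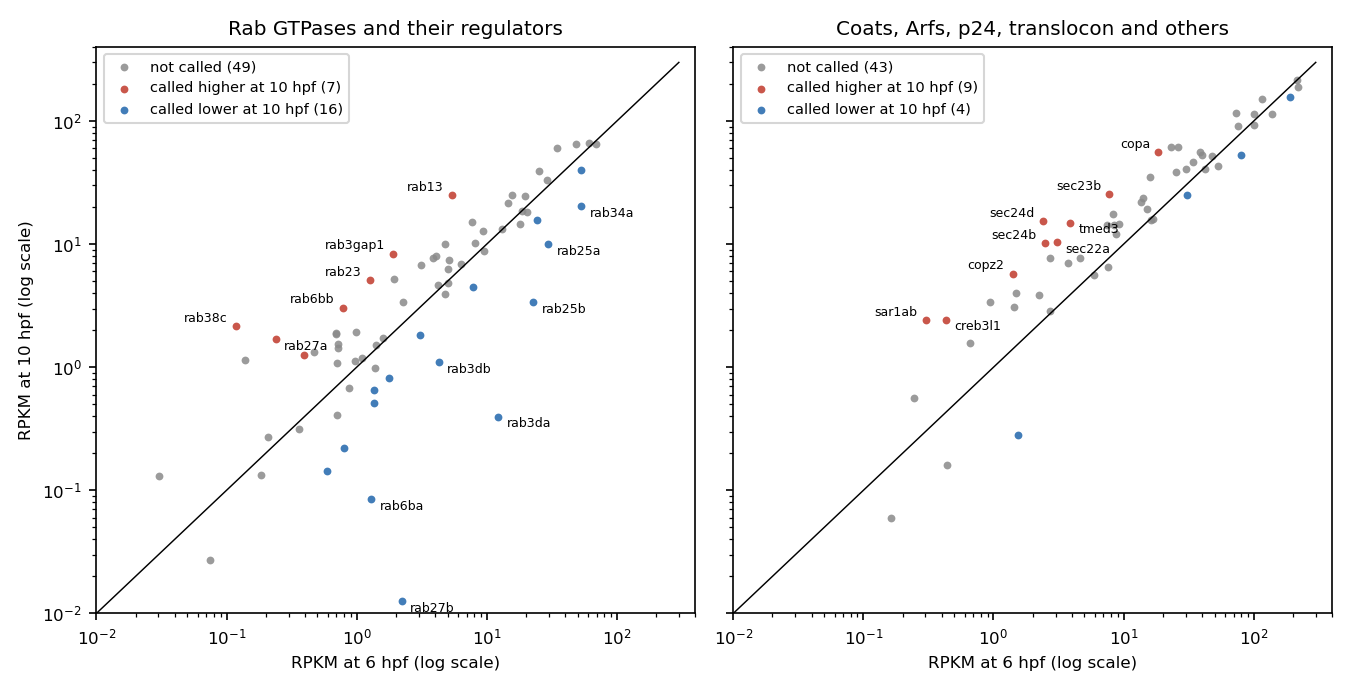
RPKM at 6 hpf (x axis) against RPKM at 10 hpf (y axis), both on log scales, for every member listed above 0 at both stages; the left panel holds the Rab GTPases with their regulators, the right panel all other members, the line marks equal levels, and called genes that differed at least 2-fold with a pseudocount of 1 are named. Most abundant members lie near the line, whereas rab27b, rab3da, rab6ba and rab25b lie far below it and rab38c, sar1ab and sec24d far above it.

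The COPII genes held the largest share of higher calls among the 10 groups. Of the 10 genes, 5 (50.0%, against 9.7% of all genes; 4 of 9 at 1 RPKM or more, against 16.3%) had a higher call at 10 hpf in the authors' deposited table and 0 a lower call. The 5 were sec24d, sec24b, sec23b, sar1ab and sec16b. At 6 hpf sec24b, sec24d and sar1ab were less abundant than a paralog, and sec23b was level with its own. The median log2 RPKM ratio of the COPII genes was 0.31, and with the deposited fold it was -0.29.

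The cargo-binding subunit Sec24 is encoded by 4 genes in the data. Values of sec24d (ENSDARG00000045946) were 2.39 and 15.5 RPKM, a rise of 6.46-fold (interval 5.47 to 7.68), and those of sec24b (ENSDARG00000071906) were 2.47 and 10.3 RPKM, a rise of 4.16-fold (3.43 to 5.08). By contrast, sec24a stood at 15.2 and 19.1 RPKM and sec24c at 16.1 and 15.8 RPKM, and neither was called. The 4 genes thus spanned a 6.75-fold range at 6 hpf and a 1.86-fold range at 10 hpf. Together sec24b and sec24d made up 13.4% of the summed Sec24 RPKM at 6 hpf and 42.4% at 10 hpf.

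Sec23, the GTPase-activating partner of Sec24 in the inner coat, showed the opposite picture, since its paralogs began level and ended apart. Levels of sec23a were 7.63 and 6.56 RPKM and those of sec23b (ENSDARG00000019360) 7.78 and 25.7 RPKM. The rise of sec23b was 3.30-fold (2.99 to 3.66), and its share of the Sec23 sum went from 50.5% to 79.7%. sec23ip, which encodes a Sec23-interacting phospholipase-like protein, was not called at 8.71 and 12.2 RPKM.

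Sar1, the GTPase that starts coat assembly, was supplied almost wholly by sar1b, which was not called at 42.5 and 41.1 RPKM. Its paralog sar1ab (ENSDARG00000033320) was called higher at 0.303 and 2.43 RPKM, values that fit at least 9 and 99 reads, and made up 5.59% of the Sar1 sum at 10 hpf. sec16b, a member of the family that organizes ER exit sites, was called higher from a listed value of 0 to 0.859 RPKM and was the single COPII gene under 1 RPKM at both stages. Of the outer cage, sec13 was the most abundant COPII gene, at 75.4 and 91.6 RPKM, and was not called. Outside the symbol rule, the cage gene sec31a was called lower at 19.0 and 15.7 RPKM, a call lost after centring, and sec31b was not called at 3.83 and 6.02 RPKM. Summed over Sec23 and Sec24 the inner coat had 51.7 and 93.0 RPKM, a ratio of 1.80, and the outer cage of sec13, sec31a and sec31b had 98.2 and 113 RPKM, a ratio of 1.15. Most of the outer sum was sec13, and the 2 Sec31 genes alone summed to 22.8 and 21.7 RPKM, a ratio of 0.95.

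All 7 COPI genes had the larger RPKM at 10 hpf, although the deposited fold was below 0 for copb1, copb2 and cope. Of the 7, copa and copz2 were called higher in the authors' deposited table (28.6%, against 9.7% of all genes) and 0 lower. All 7 reached 1 RPKM, a level at which 16.3% of genes were called higher. copa (ENSDARG00000004173), the large subunit alpha, rose from 18.5 to 55.8 RPKM, which is 3.01-fold (2.83 to 3.20). copz2 (ENSDARG00000006786), the minor zeta subunit, rose from 1.41 to 5.76 RPKM, which is 4.09-fold (3.05 to 5.57). The median log2 RPKM ratio of the group was 1.10, which is 0.95 above that of all genes. At least 2-fold by RPKM with a pseudocount of 1 were 4 of the 7 genes, against 22.1% of all genes at 1 RPKM or more that differed so in this direction.

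The COPI genes that were not called also had the larger RPKM at the later stage. copz1, the main zeta subunit, stood at 23.0 and 61.8 RPKM, and copg2, a gamma subunit, at 15.9 and 35.1 RPKM. Smaller differences were seen for the beta subunit copb1 (25.2 and 38.8 RPKM), the beta-prime subunit copb2 (30.3 and 41.2 RPKM) and the epsilon subunit cope (34.0 and 46.4 RPKM). The uncalled ratios ran from 1.36 for copb2 and cope to 2.69 for copz1, and the latter lay close to the 3.01 of copa, which was called. The coatomer consists of these subunits in equal numbers, and without copz2 the 6 genes spanned a 2.14-fold range at 6 hpf and a 1.76-fold range at 10 hpf. With the delta subunit genes arcn1a and arcn1b the ranges were 2.81-fold and 2.59-fold. These delta subunit genes lie outside the symbol rule: arcn1a had 20.7 and 36.4 RPKM and arcn1b 12.1 and 23.9 RPKM, and neither was called.

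**Figure D2:**
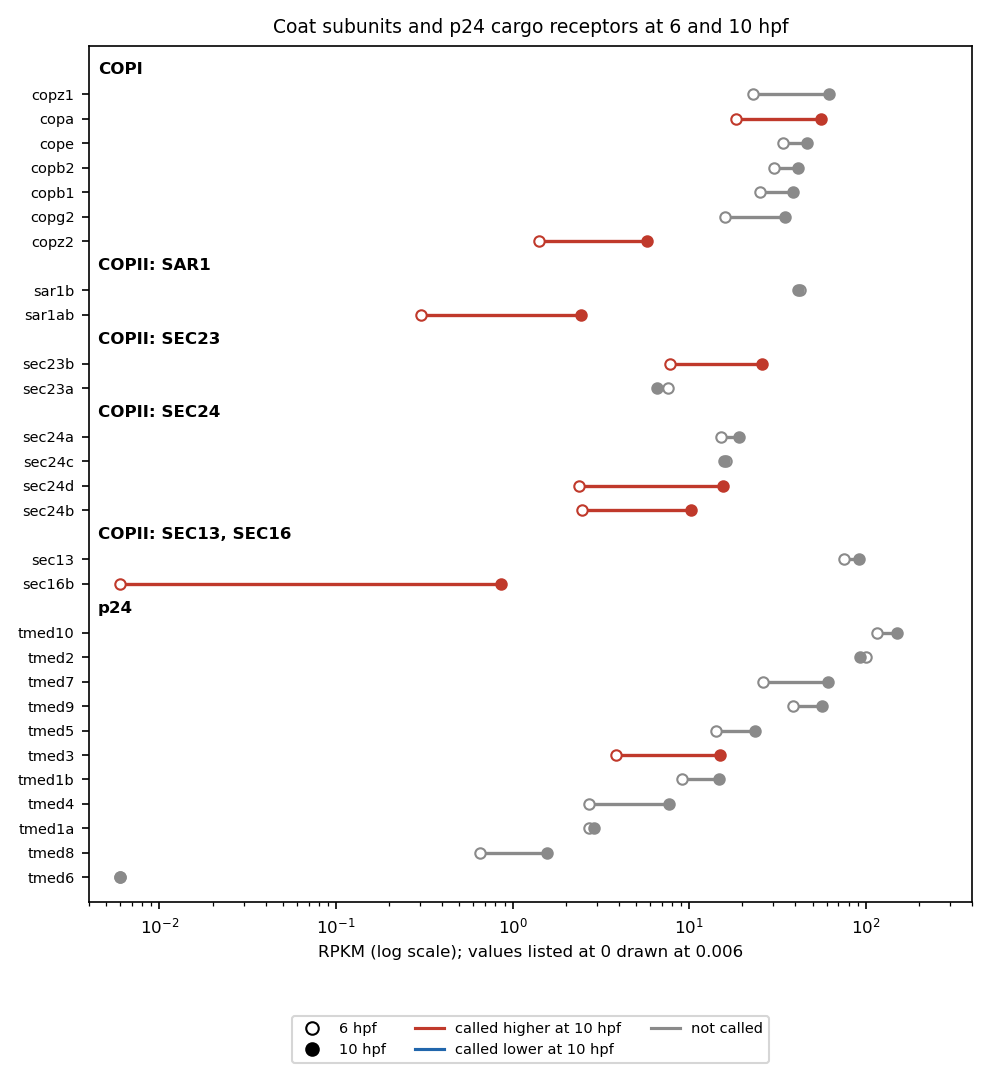
RPKM on a log scale at 6 hpf (open circles) and 10 hpf (filled circles) for each COPI, COPII and p24 gene, coloured by the call in the authors' deposited table, with values listed at 0 drawn at 0.006. All 7 COPI genes move to the right. In COPII, sec24b, sec24d and sar1ab move toward paralogs that stay near their first value, and sec23b moves away from such a paralog.

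Among Arf GTPases, of which Arf1 recruits COPI to the Golgi and Arf6 acts at the plasma membrane, 0 of 10 genes were called higher and 2 lower (20%, against 19.8% of all genes). At 1 RPKM or more 0 of 8 were called higher (against 16.3% of genes) and 2 lower (25%, against 32.9%). arf1 (ENSDARG00000009484) fell from 79.7 to 52.6 RPKM, a call lost after centring, and arf4b (ENSDARG00000100339) fell from 1.54 to 0.282 RPKM, values that fit at least 28 and 7 reads. The most abundant Arf genes were a pair that met at 10 hpf: arf2a stood at 138 and 115 RPKM and arf2b at 72.7 and 116 RPKM. Neither was called, although arf2a lay near the threshold with an empirical false discovery rate of 0.073 in the authors' deposited table.

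The remaining Arf genes had no call. arf6b was not called at 47.9 and 52.3 RPKM, nor was arf6a at 13.5 and 22.1 RPKM. The symbol arf4a was attached to ENSDARG00000045989, at 8.36 and 17.5 RPKM, and to ENSDARG00000103858, at 3.73 and 6.98 RPKM, and neither was called. arf3a and arf3b stayed under 0.44 RPKM at both stages. The summed RPKM of the Arf group was 366 and 383. Of the regulators of Arf from the list of coat partners, the Golgi exchange factor gbf1 was called higher at 0.117 and 2.56 RPKM and the GTPase-activating protein gene arfgap3 at 2.63 and 11.1 RPKM, while arfgap2 was not called at 31.5 and 35.8 RPKM. The exchange factor gene arfgef1 was called lower at 3.96 and 3.09 RPKM, a call lost after centring.

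In the p24 family 1 of 11 genes, tmed3, was called higher (9.09%, against 9.7% of all genes) and 0 lower. At 1 RPKM or more 1 of 10 was called higher (10%, against 16.3% of genes) and 0 lower (against 32.9%). tmed3 (ENSDARG00000028816), of the gamma subfamily, rose from 3.87 to 15.0 RPKM, which is 3.88-fold (2.66 to 5.81). The most abundant member was the delta p24 gene tmed10, not called at 116 and 151 RPKM, followed by the beta gene tmed2, not called at 101 and 92.6 RPKM. Both proteins are partners in p24 complexes. The gamma genes summed to 56.1 and 118 RPKM, a ratio of 2.1, in which tmed7 was the largest at 26.1 and 61.3 RPKM and not called. The alpha genes tmed4 and tmed9 summed to 41.2 and 64.1 RPKM. tmed8, which shares the GOLD domain, stood at 0.656 and 1.57 RPKM, and tmed6 was listed at 0 at both stages. Of the 10 genes at 1 RPKM or more, 9 had the larger value at 10 hpf and the median log2 RPKM ratio was 0.63; by the deposited fold 6 of the 10 were above 0.

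Genes of protein entry into the ER were the most abundant members by summed RPKM. Among 7 genes of the translocon and signal peptidase, 0 were called higher and 2 lower (28.6%, against 19.8% of all genes). All 7 reached 1 RPKM, a level at which 32.9% of genes were called lower. Neither lower call held after centring, and the median log2 RPKM ratio of the group was -0.21. sec61b (ENSDARG00000076568), the beta subunit of the channel, was called lower at 190 and 156 RPKM, and sec63 (ENSDARG00000017740), which recruits the chaperone BiP to the channel, at 31.0 and 25.1 RPKM. The channel gene sec61a1 was not called at 218 and 188 RPKM, and its paralog sec61a1l was not called at 101 and 114 RPKM. The gamma subunit sec61g had 217 RPKM at both stages. Values for sec62 were 53.0 and 42.8 RPKM and those for sec11a, the catalytic subunit of signal peptidase, 39.8 and 53.3 RPKM, without a call. Group sums were 850 RPKM at 6 hpf and 795 RPKM at 10 hpf, against 148 and 285 RPKM for COPI.

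All 5 CREB3 factors, membrane-bound transcription factors cleaved at the Golgi, had the larger RPKM at 10 hpf and a deposited fold above 0, and creb3l1 was the single gene of them called higher. That is 20% of the 5, against 9.7% of all genes and 16.3% of those at 1 RPKM or more, which all 5 reached. creb3l1 (ENSDARG00000015793) had 0.434 and 2.42 RPKM, values that fit at least 45 and 343 reads. Its close relative creb3l2 was not called at 1.5 and 4.0 RPKM, a ratio of 2.67 (2.24 to 3.19). In the creb3l3 branch, creb3l3l stood at 4.66 and 7.71 RPKM, creb3l3a at 2.24 and 3.83 RPKM and creb3l3b at 0.945 and 3.39 RPKM, the last with an empirical false discovery rate of 0.074 in the authors' deposited table. Their levels were low throughout, with a highest value of 7.71 RPKM.

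The SEC22 genes, which encode SNAREs or SNARE-like proteins of ER and Golgi traffic, all had the larger RPKM at 10 hpf and a deposited fold above 0. sec22a (ENSDARG00000078328) was called higher at 3.09 and 10.3 RPKM, a rise of 3.34-fold (2.07 to 5.64). It was 1 of 4 SEC22 genes (25%, against 9.7% of all genes and 16.3% of those at 1 RPKM or more). sec22ba and sec22bb were not called at 7.48 and 14.4 RPKM and at 8.40 and 14.3 RPKM, nor was sec22c at 1.43 and 3.11 RPKM. Of the SEC14-like lipid transfer genes, which share the name and not the coat, sec14l7 had 16.9 and 16.0 RPKM, sec14l1 5.88 and 5.62 RPKM and sec14l8 0.244 and 0.567 RPKM. None of these 3 was called.

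The wider ER and Golgi machinery was taken from lists of genes outside the symbol rule. These lists were chosen with earlier results of these data known, so the shares called in them are descriptions only. Among 13 coat partners 3 were called higher and 2 lower, and of the lower calls 0 held after centring. With gbf1 and arfgap3, the third was preb, the exchange factor of Sar1, which rose from 2.04 to 11.7 RPKM. Of 19 ER and Golgi receptors, tethers and SNAREs, 5 were called higher and 0 lower. Leading genes of the latter list were the SNARE gene stx5al, which rose from 1.10 to 7.53 RPKM, and kdelr2b, a receptor that returns ER proteins through COPI, which rose from 5.55 to 27.7 RPKM. Each of these 2 had a sister that was not called, stx5a at 5.23 and 7.88 RPKM and kdelr2a at 57.7 and 72.4 RPKM. The list's other called genes were surf4l, ykt6 and uso1. Of these, surf4l had its sister surf4 listed at 0 at both stages, and ykt6 and uso1 had no sister in the list.

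The shares called higher were 23.1% of coat partners and 26.3% of the receptor list. Of all genes 9.7% were called higher, and of those at 1 RPKM or more 16.3%. All 13 coat partners and 18 of the 19 genes in the receptor list reached that level. Called lower were 15.4% of coat partners and 0% of the receptor list. The lower share was 19.8% of all genes and 32.9% of those at 1 RPKM or more. Among 4 clathrin genes 1 (25%) was called higher, the heavy chain cltcb at 6.19 and 18.9 RPKM, and 0 lower. The 16 genes of the unfolded protein response had 0 called higher and 2 lower (12.5%, against 19.8% of all genes). All 16 reached 1 RPKM, a level at which 32.9% of genes were called lower. The 2 were hsp90b1 at 13.2 and 10.3 RPKM and dnajb9b at 10.8 and 6.29 RPKM, and neither call held after centring. Within that list xbp1 and hspa5, the central factor and chaperone of the ER stress response, were not called at 156 and 145 RPKM and at 49.0 and 56.1 RPKM. The 6 genes that prenylate or recycle Rab proteins had 0 calls in either direction, with gdi2 the most abundant at 51.6 and 73.8 RPKM.

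Of the 66 Rab GTPases, 6 (9.09%) were called higher and 13 (19.7%) lower. Over all genes the shares were 9.7% and 19.8%. At 1 RPKM or more they were 11.1% and 20.4% of 54 Rabs, against 16.3% and 32.9% of genes. After centring 10 of the 13 lower calls held, and 8 of the 11 at 1 RPKM or more. With an RPKM difference of at least 2-fold (pseudocount of 1) in place of the call, 6 of these 54 Rabs were higher and 7 lower. Of all genes at 1 RPKM or more, 22.1% were higher by this measure and 18.8% lower. The summed RPKM of all Rabs was 692 at 6 hpf and 725 at 10 hpf. The median log2 RPKM ratio over the 54 Rabs at 1 RPKM or more was 0.28, and with the deposited fold it was -0.26. Of the 24 Rabs at 10 RPKM or more in either stage, 17 were not called. Of these 17, 16 had a ratio between 0.5 and 2, rab14l being the exception at 4.74 and 10.0 RPKM. The matching shares of all genes at 10 RPKM or more were not computed, so these counts do not set the Rabs apart. Shares called by compartment, given below, count Rabs of any level and stand against all genes of any level.

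The abundant Rabs included several of general membrane traffic. At 6 hpf the highest were the recycling-endosome gene rab11a (68.7 RPKM), rab10 of exocytosis (60.8 RPKM), the paralogs rab34a and rab34b (53.5 RPKM each) and rab2a of the Golgi (48.6 RPKM). At 10 hpf they were rab10 (66.1 RPKM), rab2a and rab11a (64.8 RPKM each), rab1ab of ER to Golgi transport (60.7 RPKM) and rab34b (40.4 RPKM). Among the first 10 at each stage, 7 genes were shared, and rab34a, rab25a and rab40c were replaced by rab11ba, rab13 and rab5ab. The 10 of each stage made up 61.9% of the Rab sum at 6 hpf and 61.3% at 10 hpf.

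Of 17 ER and Golgi Rabs, 1 was called higher and 1 lower (5.88% each, against 9.7% and 19.8% of all genes), and both were rab6b genes. rab6bb (ENSDARG00000031343) was called higher at 0.784 and 3.05 RPKM and rab6ba (ENSDARG00000034522) lower at 1.29 and 0.0847 RPKM, where the values fit at least 40 and 213 reads and at least 67 and 6 reads. Rab6 acts at the Golgi, and its most abundant gene, rab6a, was not called at 5.05 and 6.31 RPKM. The 4 Rab1 genes, which control entry into the Golgi, summed to 62.3 and 97.1 RPKM with no call. The ER and Golgi set made up 25.2% of the Rab sum at 6 hpf and 31.2% at 10 hpf.

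In the 20 Rabs of early and recycling endosomes, 1 was called higher (5%, against 9.7% of all genes) and 4 lower (20%, against 19.8%). Both Rab25 genes, epithelial relatives of Rab11, were called lower. rab25b (ENSDARG00000052954) fell from 22.7 to 3.36 RPKM, which is 6.76-fold (5.56 to 8.28). rab25a (ENSDARG00000058800) fell from 29.8 to 10.0 RPKM, which is 2.98-fold (2.53 to 3.52). Both calls held after centring, and the Rab25 sum was 52.6 and 13.4 RPKM.

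Other calls in this set were of low genes. rab4b, of fast recycling, was called lower at 1.37 and 0.649 RPKM and rab31 at 0.801 and 0.220 RPKM, the latter on as few as 8 and 3 reads. rab22a was called higher at 0.394 and 1.25 RPKM, or at least 38 and 165 reads. The classical endosome genes were not called: the 4 Rab5 genes summed to 69.6 and 86.0 RPKM and the 4 Rab11 genes to 89.6 and 97.7 RPKM.

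Of the 13 Rabs of exocytosis and polarised transport, 2 were called higher (15.4%, against 9.7% of all genes) and 3 lower (23.1%, against 19.8%). rab13 (ENSDARG00000034771), a Rab of epithelial junctions, rose from 5.38 to 24.9 RPKM, which is 4.63-fold (3.95 to 5.46), the highest level among the Rabs called higher. The secretory granule genes of the Rab3D type fell: rab3da (ENSDARG00000018107) went from 12.3 to 0.394 RPKM, or at least 251 and 11 reads, and rab3db (ENSDARG00000101534) from 4.29 to 1.10 RPKM, which is 3.91-fold (2.08 to 7.78). All 6 Rab3 genes together summed to 17.8 and 2.40 RPKM. The Rab27 genes, which act in regulated secretion, were called in opposite directions. rab27b (ENSDARG00000087762) fell from 2.23 to 0.0126 RPKM, or at least 130 reads and at least 1 read, and rab27a (ENSDARG00000103935) was called higher at 0.239 and 1.69 RPKM, or at least 3 and 29 reads.

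Among the 9 Rabs of late endosomes and lysosomes, 1 was called higher and 1 lower (11.1% each, against 9.7% and 19.8% of all genes). rab38c (ENSDARG00000074719), of the Rab family of lysosome-related organelles, was called higher at 0.118 and 2.16 RPKM, or at least 3 and 75 reads. rab42a was called lower at 1.35 and 0.513 RPKM, a call lost after centring. rab7, the main late-endosome gene, was not called at 18.7 and 18.4 RPKM.

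The 4 Rabs linked to the cilium divided, with 1 called higher (25%, against 9.7% of all genes) and 2 lower (50%, against 19.8%). All 4 reached 1 RPKM, a level at which 16.3% of genes were called higher and 32.9% lower. rab34a (ENSDARG00000045628) fell from 53.5 to 20.3 RPKM, which is 2.63-fold (2.42 to 2.86), and rab34b (ENSDARG00000010977) was called lower at 53.5 and 40.4 RPKM, a call lost after centring. rab23 (ENSDARG00000004151), a restraint on Hedgehog signalling in the mouse, rose from 1.28 to 5.12 RPKM, which is 4.01-fold (2.76 to 6.00). rab36 was not called at 0.139 and 1.15 RPKM, or at least 3 and 34 reads. The share of the Rab sum held by these genes was 15.7% at 6 hpf and 9.24% at 10 hpf. Of the 3 remaining Rabs, 2 were called lower (66.7%, against 19.8% of all genes). These were rab40c at 24.2 and 15.6 RPKM and rab44 at 0.0940 RPKM and a listed value of 0, and the call of rab40c was lost after centring. rab40b was not called at 0.719 and 1.43 RPKM.

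**Figure D3:**
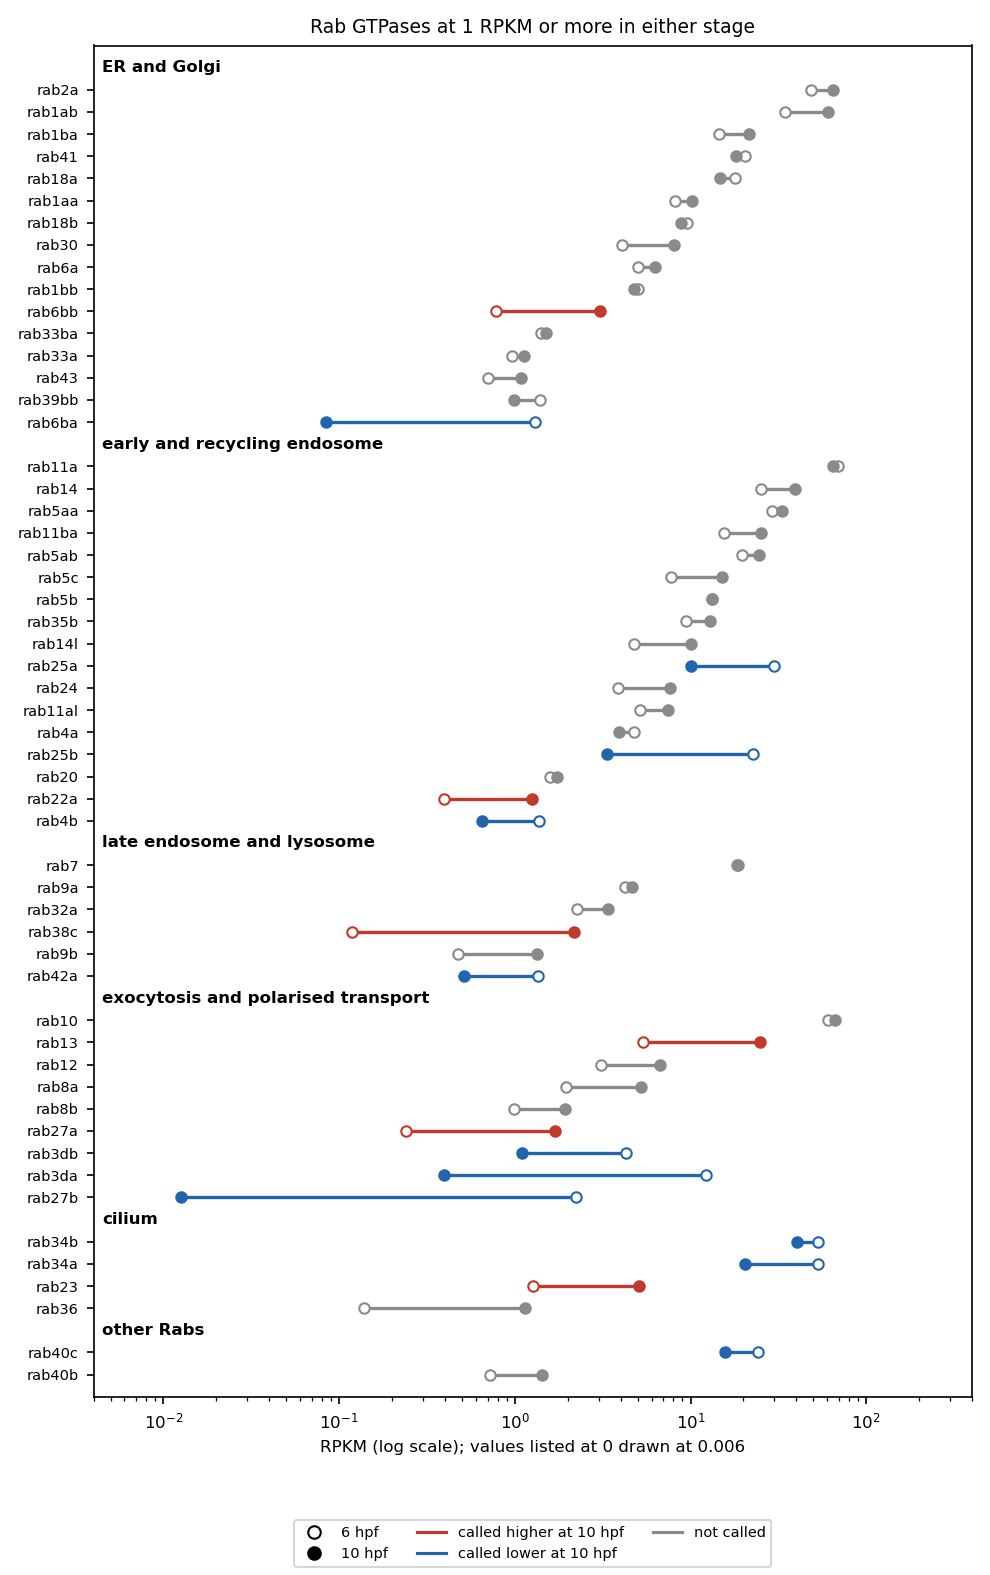
RPKM on a log scale at 6 hpf (open circles) and 10 hpf (filled circles) for the 54 Rab GTPases at 1 RPKM or more in either stage, grouped by the compartment each is known for and coloured by the call in the authors' deposited table. Abundant grey pairs such as rab2a, rab11a, rab7 and rab10 lie close together, and the long blue lines are rab27b, rab3da, rab6ba and rab25b.

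Rab regulators and effectors had 1 of 11 genes called higher (9.09%, against 9.7% of all genes) and 4 lower (36.4%, against 19.8%). At 1 RPKM or more, 1 of 9 was called higher (11.1%, against 16.3% of genes) and 3 lower (33.3%, against 32.9%). After centring 1 lower call among the 11 genes held (13.4% of all genes kept one). All 4 lower calls were of Rab11 family interacting proteins, effectors that link Rab11 to motors and recycling, of which 7 were measured. rab11fip4a fell from 7.84 to 4.50 RPKM, rab11fip3 from 3.05 to 1.83 RPKM and rab11fip1b from 1.76 to 0.815 RPKM, and these 3 calls were lost after centring. rab11fip4b, at 0.588 and 0.143 RPKM, kept its call. The other 3 of these genes, rab11fip1a, rab11fip2 and rab11fip5a, were not called and had the larger RPKM at 10 hpf, although the deposited fold of rab11fip2 was below 0. A member of this family listed under a clone name, whose identifier now carries the symbol rab11fip5b, was called higher at 0.203 and 1.26 RPKM.

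The catalytic subunit gene rab3gap1 (ENSDARG00000098079) of the enzyme complex that acts on Rab3 and Rab18 rose from 1.92 to 8.38 RPKM, which is 4.37-fold (3.45 to 5.60). Its partner rab3gap2 was not called at 6.39 and 6.87 RPKM. The subunits thus went from unequal to near-equal levels while the Rab3 sum went the other way. Of the substrates, rab18a was not called at 18.0 and 14.7 RPKM, nor was rab18b at 9.49 and 8.84 RPKM.

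Symbols that differ only in a final a or b form 29 pairs among the members, and in 22 of them both genes reached 1 RPKM. Some are fish duplicates and others, such as sec23a and sec23b, are paralogs found in all vertebrates. Close copies may share reads, so that a difference between them is uncertain where their sequences are alike. In 8 of the 22 pairs the log2 RPKM ratios differed by at least 1, and the median difference over the 22 was 0.76. The gene arf4b was paired with each gene annotated as arf4a, and each of these pairs is among the 8. The 2 pairs with opposite calls were rab27a with rab27b and rab6ba with rab6bb. In 11 pairs neither gene was called, and in 15 the more abundant gene was the same at both stages.

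**Figure D4:**
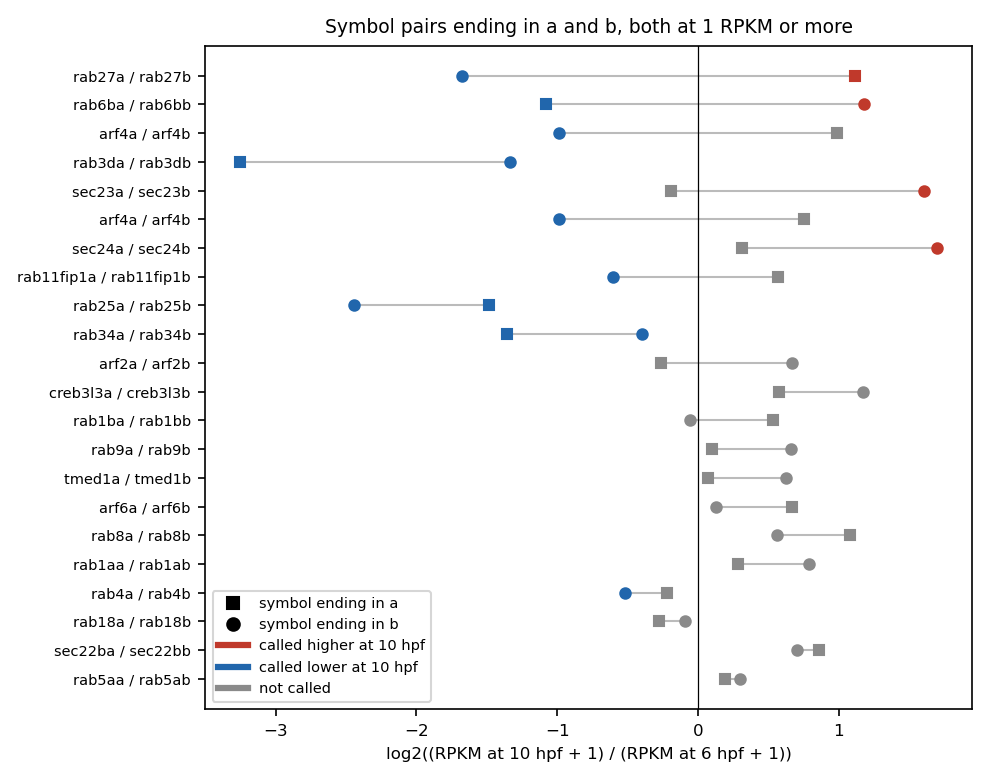
Log2 RPKM ratio of 10 hpf over 6 hpf with a pseudocount of 1 (x axis) for both genes of the 22 pairs, with squares for symbols ending in a, circles for symbols ending in b, colours for the call in the authors' deposited table, and pairs ordered by the distance between their genes. The Rab27 and Rab6b pairs span 0 with opposite calls, whereas the Rab5a pair at the bottom lies within 0.11.

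Markers of tissues that form or spread in this interval were measured beside these genes. For comparison, 9.7% of all genes were called higher and 19.8% lower, and at 1 RPKM or more 16.3% and 32.9%. For the enveloping layer, the outer epithelium, 0 of 6 marker genes were called higher and 2 lower, and their summed RPKM was 2975 and 5282. The 2 were cldne, at 267 and 86.6 RPKM, and one of 2 genes annotated as krt17, at 51.4 and 16.0 RPKM, while krt4 was not called at 1274 and 2305 RPKM. For the hatching gland 3 of 5 genes were called higher and 1 lower (sums of 164 and 763 RPKM). The lower call, of klf17, was lost after centring. For the notochord 2 of 6 genes were called higher and 1 lower (sums of 277 and 120 RPKM). The lower notochord gene was tbxta, at 233 and 65.5 RPKM, and without it the other 5 summed to 44.7 and 54.3 RPKM. Yolk syncytial layer genes had 2 of 3 called higher and 0 lower. The uncalled apoeb stood at 1552 and 2596 RPKM, and the 2 called genes summed to 2.77 and 186 RPKM. Paraxial mesoderm genes had 1 of 3 called higher and 1 lower (193 and 265 RPKM), and neural plate genes 0 of 3 higher and 1 lower (395 and 322 RPKM). The lower neural plate call, of sox3, was lost after centring. Of these markers the hatching enzyme gene he1a was listed at 0 at 6 hpf and stood at 32.1 RPKM at 10 hpf, and no other was listed at 0. The part of these tissues in the changes of Rab and coat genes was not tested.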

How the data were processed

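RNA from whole wild-type zebrafish embryos was sequenced at 6 hpf (1 library) and 10 hpf (2 libraries). The submitters' processing notes name TopHat2 2.1.1 and build GRCz10, and no source used here names the counter or annotation. The authors deposited RPKM values for 6 hpf and, as 1 value over 2 libraries by the column's name, for 10 hpf. They also deposited log2 folds, conservative log2 folds (GFOLD with a setting of 0.01) and an empirical false discovery rate, a column of p-value type, per the file headers.

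Values were summarised with Python 3.11.15, pandas 2.3.3, numpy 2.4.6 and scipy 1.17.1. The members and lists were chosen with earlier results of these data known. Centring subtracted a median fold of -0.50, which can remove a lower call but not a higher one, and cannot add a call. Named were all COPI, COPII, Arf and CREB3 genes at 1 RPKM or more, in each other group and Rab compartment up to 4 called members in each direction, the most abundant member of each stage and the most abundant uncalled member, in each pathway list up to 2 called genes in each direction, and pairs that parted by at least 1 on the log2 scale. Genes named beyond this, to complete a family or a list, were chosen after their values were seen.

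Depth was inferred from 5S rRNA genes, whose low values were whole reads over whole-base lengths (tolerance 0.01 bases) in 100% of 101 values at 6 hpf and 99.0% of 99 values at 10 hpf. The 6 hpf total was chosen to make this share largest, so the 100% is no check of it. Multiples of a total fit as well, and the smallest was taken. The 10 hpf total was the 6 hpf total times 1.37, the most common ratio of 6 hpf to 10 hpf RPKM. The fit does not show that the reads of both 10 hpf libraries were pooled. For 119 of 128 members above 0 at both stages the smallest fitting read pair was found. The procedure was tested on simulated data. Sequences of the members were not used here.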

Additional observations from a re-analysis of the deposited data

How the results depend on the processing

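The scale of the comparison was the choice that mattered most. With the deposited log2 fold in place of the RPKM ratio, the median turned negative for Rab GTPases (-0.26), Rab regulators (-0.46), COPII genes (-0.29) and Arf GTPases (-0.20), and that of the translocon group went to -0.85; the medians of COPI, p24 and CREB3 genes stayed positive. Centring on all genes turned the median of Rab regulators to -0.053, and no minimum level turned that of Arf GTPases to -0.0047, so the sign of these medians depends on the scale or the minimum. Centring of the calls could remove lower calls only. It left 1 higher and 1 lower call among 11 Rab regulators, 1 lower call among 10 Arf genes and 0 in the translocon group of 7. Of all genes 9.7% kept a higher call and 13.4% a lower one. At least 2-fold apart on the RPKM ratio were 4 of 7 COPI, 3 of 10 p24 and 2 of 5 CREB3 genes. The same held for 1 of 9 Rab regulators, 0 of 8 Arf genes and 0 of 7 genes of the translocon group. These counts are of genes at 1 RPKM or more, and all genes so counted were higher at 10 hpf. Of all genes at that level 22.1% were higher by this measure and 18.8% lower. A false discovery rate under 0.01, or an absolute deposited log2 fold of at least 1, left 1 COPI call (copz2, not copa) and 0 translocon calls. With members at 5 RPKM or more, calls were 8 of 33 for Rab GTPases and 3 of 8 for COPII. They were 2 of 3 for Rab regulators, 1 of 7 for Arf and 0 of 1 for CREB3. The share of all genes called at 5 RPKM or more was not computed. Of 54 Rab GTPases at 1 RPKM or more, 6 were at least 2-fold higher and 7 lower, against calls of 6 and 13 over all 66. Other medians, total counts and sums, also with upper-case symbols (added after the data were seen), moved by less than a factor of 1.5. Of the 116 members at 1 RPKM or more, the sign under the deposited log2 fold differed for 29, of which 0 were called. Of the 69 members that the naming rule chose, pseudocounts of 0.1 and 5 moved 12 and 18 by more than this factor without a change of sign. Leaving out each 10 hpf replicate was not run, because the table holds 1 value for both. No paired analysis was possible because 6 hpf has a single library. Low genes were limited by depth: by the inferred totals, 1 RPKM stood for 17.0 and 23.2 reads per kilobase.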
